A study of Mus musculus with 4 samples.

Results

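The 8 genes described here are the granule proteases, the IgE receptor chains and the histamine-forming enzyme by which connective tissue mast cells are commonly recognised. They were taken by name (Cpa3, Mcpt4, Cma1, Tpsb2, Tpsab1, Ms4a2, Fcer1a and Hdc), and all 8 were found among the 22913 genes listed in each library. Their RNA was measured in dermal white adipose tissue (dWAT), the fat layer around the lower ends of hair follicles (HFs), which was scraped from the skin of C57BL/6 mice by microdissection after the deeper fat and muscle had been removed. OTD and YTD came from old and young mice in telogen, the resting phase of the hair cycle, and OAD and YAD from old and young mice in anagen, the growth phase, which had been started by plucking the hair. Old mice were 18 months and young mice 2 months of age by the titles and descriptions, whereas a separate age tag has 18 months in YTD and 2 months in OAD; the titles were followed here. By the study's methods, tissue of several mice was used for each group. There was 1 library for each group, so the spread between animals is unknown and no difference below carries a p-value. The labels give neither the sex nor the day after plucking, and age comparisons in anagen are between libraries from plucked mice only.

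Values are FPKM, fragments corrected for the length of the gene and for sequencing depth, so levels of different genes may be compared. A difference is that of log2(FPKM + 1) between 2 libraries, and a gene was counted as risen or fallen when it reached 1 in size. Judged by the smallest FPKM steps, each library held roughly 19100000 to 24500000 fragments. The ranges given after folds are 95% exact counting intervals from those estimated fragments and cover counting error only. A value worth 3 fragments or fewer is called under the floor. In tissue RNA, fewer cells of a type and less RNA per cell cannot be told apart.

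Mast cells live in connective tissue around vessels, nerves and HFs. They store proteases, histamine and heparin proteoglycan in granules and release them when antigen crosslinks IgE held on their surface by the high-affinity IgE receptor. Chymases and tryptases are serine proteases of the granule, and carboxypeptidase A3 trims the ends of peptides that chymases cut. Kit ligand maintains the cells in the skin, and mast cells have long been studied around the cycling HF.

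The promoter sequences of 4 of these genes are shown as examples that hold a short GATA motif. Each of the 4 genes fell from OTD to OAD as deposited, Fcer1a to a value under the floor. After division by pan-leukocyte markers Cma1 and Mcpt4 turned, and Cma1 also did so without Tyrobp among them. The fall does not set these 4 apart, since all 8 genes were lower in OAD. Hdc fell too (-2.10), and its promoter lacks the motif. A link between motif and fall was not tested. GATA factors, Gata2 among them, are needed for mast cell development. RefSeq sequences of GRCm38.p6 were matched for 6 of the 8 genes (Tpsb2 and Tpsab1 had no entry). Each run below holds the 250 bases before the gene's start, 5′ to 3′ on the minus strand that the gene lies on, with GATAA or its reverse complement TTATC in capitals. The regions are chr3:20242182-20242431 for Cpa3, chr14:56062311-56062560 for Mcpt4, chr14:55944676-55944925 for Cma1 and chr1:173227230-173227479 for Fcer1a.
Cpa3: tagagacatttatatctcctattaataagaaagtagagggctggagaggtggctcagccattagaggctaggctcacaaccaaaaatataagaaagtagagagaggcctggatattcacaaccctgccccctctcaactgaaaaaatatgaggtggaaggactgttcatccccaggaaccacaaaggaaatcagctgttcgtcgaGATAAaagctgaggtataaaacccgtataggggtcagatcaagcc
Mcpt4: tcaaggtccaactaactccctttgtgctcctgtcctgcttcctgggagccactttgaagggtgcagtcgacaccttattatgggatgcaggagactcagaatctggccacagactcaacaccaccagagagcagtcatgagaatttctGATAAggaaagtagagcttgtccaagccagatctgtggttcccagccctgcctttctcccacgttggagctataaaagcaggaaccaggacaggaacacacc
Cma1: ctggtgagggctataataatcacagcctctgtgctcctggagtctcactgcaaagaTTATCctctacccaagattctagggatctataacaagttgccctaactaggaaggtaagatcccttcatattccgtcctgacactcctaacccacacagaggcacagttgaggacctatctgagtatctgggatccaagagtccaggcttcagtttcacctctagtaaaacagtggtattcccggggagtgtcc
Fcer1a: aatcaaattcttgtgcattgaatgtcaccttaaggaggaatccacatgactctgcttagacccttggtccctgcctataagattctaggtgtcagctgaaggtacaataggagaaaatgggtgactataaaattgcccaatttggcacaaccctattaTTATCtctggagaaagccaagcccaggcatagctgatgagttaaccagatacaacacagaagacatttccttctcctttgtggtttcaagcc
The motif begins 45 bases before the start in Cpa3, 102 bases in Mcpt4, 194 bases in Cma1 and 92 bases in Fcer1a. GATAA on either strand was present in 5 of the 6 promoters, all but that of Hdc, and in 22.6% of all 32851 promoters of the same length. CANNTG, the letters of an E-box read on both strands, was in 4 of the 6 and in 66.2% of all promoters. TATAAA on the gene strand was in 3 of the 6 (Cpa3, Mcpt4 and Fcer1a) and in 7.59% of all promoters. These matches describe letters, and binding was not measured.

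The proteases carried most of the mast cell signal, between 91.7% and 95.8% of the summed FPKM of the 8 genes in a library. Mcpt4, the chymase of connective tissue mast cells (ENSMUSG00000061068, 14:56059744-56062310, minus strand), was the most abundant of them in every library. Its level was 45.1 FPKM in OTD and 27.9 in YTD, against 5.66 in OAD and 7.90 in YAD. Both telogen libraries lay above both anagen libraries, and the ages differed in opposite directions, with OTD above YTD and OAD below YAD. The fold was 1.62 (1.43 to 1.84) for OTD over YTD and 1.40 (1.07 to 1.82) for YAD over OAD. The differences on the log2 scale were 0.68 and -0.42, both under the limit of 1.

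Cma1 encodes a second granule chymase (ENSMUSG00000022225, 14:55941453-55944661, minus strand) and lies in the same protease cluster as Mcpt4. Its level was 18.7 FPKM in OTD and 15.2 in YTD, against 2.69 in OAD and 3.30 in YAD. The order of the libraries was that of Mcpt4, with smaller gaps between the ages. OTD over YTD was 1.23-fold (1.03 to 1.47), and the interval of YAD over OAD, 1.23-fold (0.82 to 1.80), included no difference. The coding sequences of Mcpt4 and Cma1 were 63.6% identical with no shared run longer than 27 bases. Mcpt4 shared more with its neighbours Mcpt1, Mcpt9 and Cma2, with 86.7%, 84.0% and 83.5% identity, so fragments could have been split between these genes. Mcpt1 was listed at 0 in all libraries, Mcpt9 was under the floor in all, and Cma2 reached at most 0.771 FPKM, in YAD.

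Tpsb2, a granule tryptase (ENSMUSG00000033825, 17:25366550-25368094, plus strand), was at 21.3 FPKM in OTD and 15.5 in YTD, against 4.85 in OAD and 6.04 in YAD. It followed the same order of libraries. The gap between ages was 1.37-fold (1.16 to 1.62) in telogen and 1.25-fold (0.94 to 1.64) the other way in anagen, the latter interval including no difference. Tpsab1, its neighbour in the tryptase cluster (ENSMUSG00000024173, 17:25343245-25345527, minus strand), is annotated as protein coding by GENCODE and as a transcribed pseudogene by RefSeq in this genome. It was at 0.442 FPKM in OTD and was listed at 0 in YTD. In anagen it was at 0.0534 (OAD) and 0.0988 (YAD), which left OTD as the only library above the floor. The 2 coding sequences were 67.8% identical with a longest shared run of 39 bases, and a part of the Tpsab1 signal could come from Tpsb2.

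Cpa3, carboxypeptidase A3 (ENSMUSG00000001865, 3:20215620-20242181, minus strand), was at 8.17 FPKM in OTD and 6.97 in YTD, against 0.520 in OAD and 1.74 in YAD. The telogen libraries were close, OTD over YTD being 1.17-fold (0.951 to 1.45). The anagen libraries were not, YAD over OAD being 3.35-fold (1.87 to 6.28) from about 50 and 16 fragments. The gene for the small RNA Mir7007 overlaps the span of Cpa3. Whether it overlaps the counted coding sequence was not tested.

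Hdc, histidine decarboxylase, makes histamine (ENSMUSG00000027360, 2:126593667-126618678, minus strand). It was at 6.16 FPKM in OTD and 2.61 in YTD, against 0.670 in OAD and 1.20 in YAD. Here OTD stood clear of YTD, by 2.37-fold (1.87 to 3.02), while YAD was 1.79-fold (1.14 to 2.83) above OAD. The log2 difference in telogen, 0.99, lay just inside the limit of 1.

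The chains of the IgE receptor gave few fragments. Fcer1a, the alpha chain that binds IgE (ENSMUSG00000005339, 1:173221284-173227214, minus strand), was at 1.85 FPKM in OTD and 0.176 in YTD, against 0.120 in OAD and 0.115 in YAD. Only OTD was above the floor, with about 28 fragments against 3, 2 and 2 in the other libraries, and OTD over YTD was 10.5-fold (2.71 to 45.1). Ms4a2, the beta chain that amplifies the signal (ENSMUSG00000024680, 19:11615523-11623719, minus strand), was at 0.521 FPKM in OTD and 0.121 in YTD, against 0.0737 in OAD and 0.134 in YAD. It too was above the floor in OTD alone, and OTD over YTD was 4.32-fold with an interval (0.63 to 32.5) that included no difference. Fcer1g, the gamma chain that macrophages and other myeloid cells also carry, was far more abundant, at 71.9 FPKM in OTD and 54.9 in YTD, against 9.95 in OAD and 12.7 in YAD.

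**Figure D1:**
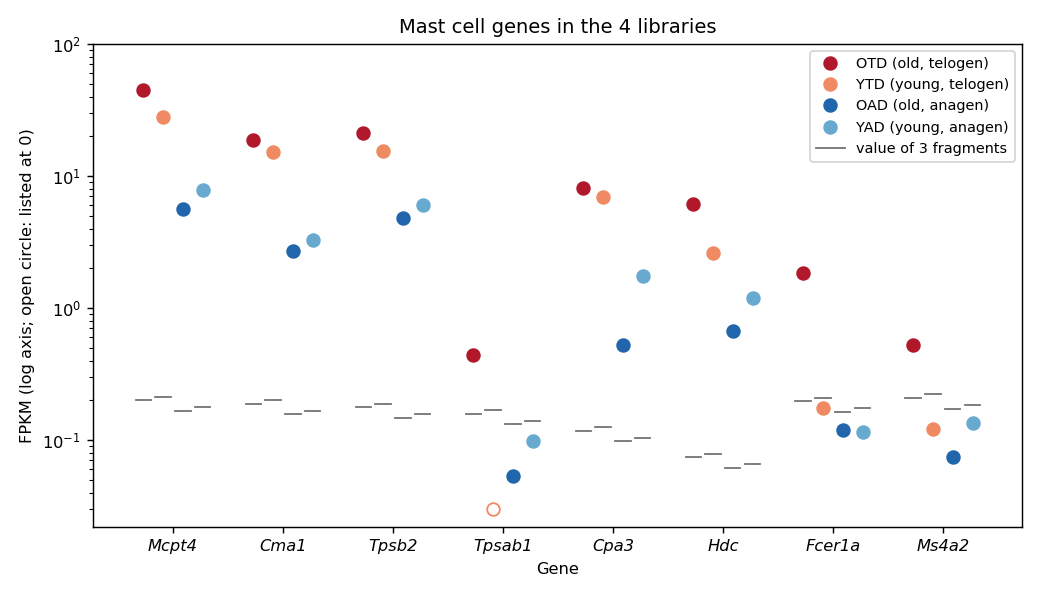
Level of each gene in FPKM on a log axis, 1 point per library, with a grey line at the value of 3 fragments and an open circle for a gene listed at 0. Mcpt4, Cma1, Tpsb2, Cpa3 and Hdc are above the line in all 4 libraries with both telogen points above both anagen points, while Tpsab1, Fcer1a and Ms4a2 are above it in OTD only.

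The first question of the design was how old and young dWAT differed in telogen. All 8 genes were higher in OTD than in YTD as deposited, against 43.5% of the 18152 genes above 0 in some library. Of these, Tpsab1, Ms4a2 and Fcer1a were above the floor in OTD only, so their direction rests on that library alone. The intervals of Cpa3 and Ms4a2 included no difference. After division by the summed pan-leukocyte markers (Ptprc, Coro1a, Laptm5 and Tyrobp), Cpa3, Cma1, Mcpt4 and Tpsb2 instead came out lower in OTD. That division moved the median of all genes to -0.46, with the members' median 0.49 above it. It scales every gene of a library alike, so this distance restates the undivided one. Without Tyrobp, a marker left out after the values were seen, Mcpt4 (0.34) and Tpsb2 (0.11) were higher in OTD, and Cpa3 (-0.09) and Cma1 (-0.03) were near 0. Only Fcer1a rose by 1 or more (1.28), 1 gene of 8 beside 1.58% of all genes, and none fell, beside 1.83%. The median difference was 0.48 for the 8 genes and -0.01 for all genes. Their summed level was 102 FPKM in OTD and 68.4 in YTD, a fold of 1.49 (1.39 to 1.61).

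In anagen the order of the ages was the other way round. The summed level was 14.6 FPKM in OAD and 20.5 in YAD, and YAD over OAD was 1.40-fold (1.21 to 1.63). As deposited, 7 of the 8 genes were lower in OAD, beside 48.5% of all genes, and the exception, Fcer1a, was under the floor in both libraries. Tpsab1 and Ms4a2, counted among the 7, were under the floor in both as well. The intervals of Cma1 and Tpsb2 included no difference. None reached a fall of 1, beside 0.441% of all genes, and none a rise of 1, beside 0.705%. Cpa3 came nearest, with -0.85. The median was -0.24 for the 8 genes and 0.00 for all genes. Divided by the pan-leukocyte markers, which moved the median of all genes to 0.58, Cma1, Mcpt4 and Tpsb2 were higher in OAD, and the member median became 0.06. Without Tyrobp it was -0.12, with 6 of the 8 genes lower in OAD, Mcpt4 among them at -0.16.

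The second question was how the anagen libraries differed from the telogen libraries. Anagen was started by plucking at both ages, so hair phase and plucking cannot be told apart in these comparisons. In young mice, Cpa3, Mcpt4, Cma1 and Tpsb2 fell, with log2 differences of -1.54, -1.70, -1.91 and -1.23, 4 of 8 genes beside 16.2% of all genes, and no member rose, beside 15.6%. In any size, 6 of the 8 were lower, beside 47.4%. In folds, YTD over YAD was 4.59 (3.45 to 6.26) for Cma1, 4.0 (2.91 to 5.61) for Cpa3, 3.53 (2.90 to 4.33) for Mcpt4 and 2.56 (2.05 to 3.23) for Tpsb2. Each of these genes encodes a granule protease, and none of their intervals came near 1. Hdc was 2.18-fold (1.54 to 3.06) higher in YTD, a difference of -0.72 for YAD. Tpsab1, Ms4a2 and Fcer1a were under the floor in both libraries. The median was -0.97 for the 8 genes and 0.00 for all genes. When values were rescaled to TPM, which raised the all-gene median of this comparison by 0.40, only 1 member still fell by 1 or more.

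In old mice all 8 genes were lower in OAD than in OTD, beside 47.8% of all genes, and 6 fell by 1 or more, beside 15.2%, while none rose, beside 15.7%. Tpsab1, Ms4a2 and Fcer1a were above the floor in OTD only, so their direction rests on that library alone. The log2 differences were -2.79 for Mcpt4, -2.59 for Cpa3, -2.41 for Cma1, -2.10 for Hdc, -1.93 for Tpsb2 and -1.35 for Fcer1a. In folds, OTD over OAD was 15.7 (9.43 to 27.9) for Cpa3, 9.21 (6.31 to 13.5) for Hdc, 7.98 (6.46 to 9.89) for Mcpt4, 6.94 (5.12 to 9.44) for Cma1 and 4.39 (3.49 to 5.52) for Tpsb2. For Fcer1a, with 2 fragments in OAD, it was 15.4 (4.26 to 146). The proteases and Hdc were thus lower in old anagen dWAT by wider margins than in young, though that contrast has no replicate behind it. The median was -2.02 for the 8 genes and 0.00 for all genes. The summed level fell 6.99-fold (6.19 to 7.91) in old mice and 3.33-fold (2.98 to 3.74) in young mice. The age and phase comparisons share libraries, so they are not independent of each other. From the highest to the lowest, the summed levels ran OTD, YTD, YAD and OAD, and each neighbouring pair differed beyond counting error, the only error these libraries allow. Division by the pan-leukocyte markers turned both phase comparisons, with member medians of 0.44 in young and 0.32 in old mice. It moved all genes to medians of 1.57 and 2.84, with the members 1.13 and 2.52 below them. The division scales every gene of a library alike, so this distance restates the undivided one, apart from the pseudocount. Without Tyrobp, a choice made after the values were seen, the member medians were 0.36 in young and -0.10 in old mice.

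**Figure D2:**
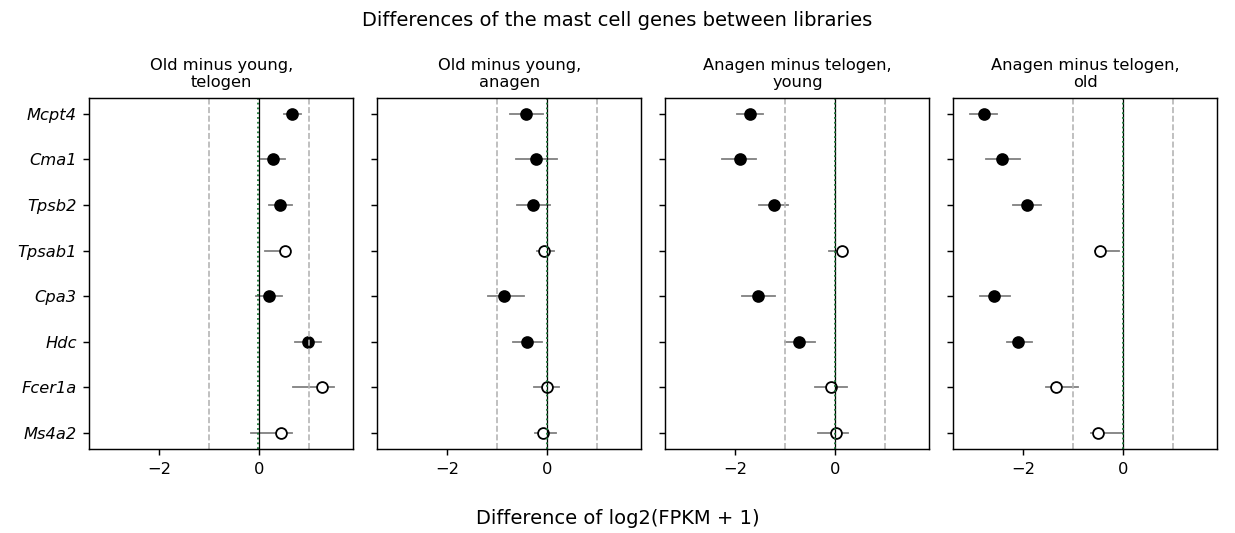
Difference of log2(FPKM + 1) of each gene in the 4 comparisons, with 95% counting intervals as grey bars, dashed lines at -1 and 1, and a dotted green line at the median of all genes. Open points have at least 1 library under the floor. The bars divide a fixed, rounded fragment total between the libraries and are rough for low genes. For Tpsab1 the point lies beyond its bar in OTD against YTD (0.528, bar 0.119 to 0.508) and YAD against YTD (0.136, bar -0.109 to 0.129). As deposited, every point is above 0 for old minus young in telogen and below 0 for anagen minus telogen in old mice, but division by pan-leukocyte markers, which moves all genes to medians of -0.46 and 2.84 in these comparisons, leaves 4 of the 8 lower in OTD than in YTD and 6 of the 8 higher in OAD than in OTD (2 and 3 of the 8 without Tyrobp).

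The mix of the signal was compared within each library, where the size of the mast cell signal plays no part. Mcpt4 made up 44.2% of the summed level in OTD and 40.8% in YTD, against 38.7% in OAD and 38.5% in YAD. Tpsb2 took 20.8% and 22.6% in the telogen libraries but 33.1% in OAD and 29.4% in YAD. The ratio of Tpsb2 to Mcpt4 was accordingly higher in anagen, at 0.856 (0.643 to 1.14) in OAD and 0.765 (0.591 to 0.988) in YAD, against 0.471 (0.413 to 0.536) in OTD and 0.555 (0.472 to 0.653) in YTD. The 2 chymases together stood at 2.94 times the 2 tryptases in OTD and 2.78 in YTD, against 1.70 in OAD and 1.82 in YAD.

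Cpa3 gave the other change in mix. Its ratio to Mcpt4 was 0.0920 (0.0507 to 0.157) in OAD, against 0.221 (0.156 to 0.308) in YAD, 0.181 (0.154 to 0.212) in OTD and 0.250 (0.207 to 0.300) in YTD. The ratio to Cma1, the protease with which carboxypeptidase A3 is stored, was 0.193 (0.103 to 0.344) in OAD and between 0.438 and 0.528 in the other libraries. OAD was therefore lowest by either measure, on about 16 fragments of Cpa3. The ratio of Hdc to Mcpt4 was 0.137 (0.118 to 0.158) in OTD and 0.0934 (0.0742 to 0.117) in YTD. In anagen it was 0.118 (0.0774 to 0.177) in OAD and 0.151 (0.109 to 0.209) in YAD, so YTD was lowest. In telogen this ratio was higher in OTD, whereas those of Cpa3, Cma1 and Tpsb2 to Mcpt4 were lower there.

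**Figure D3:**
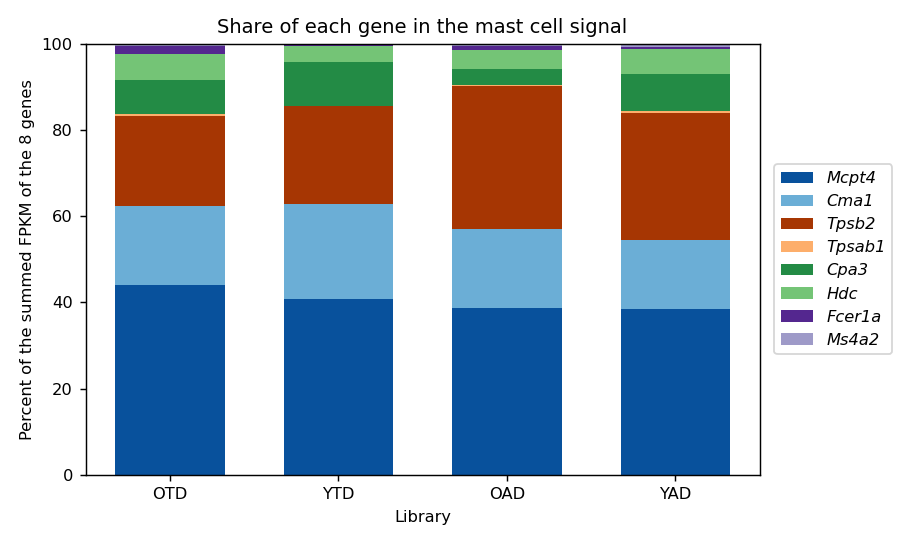
Share of each gene, in percent, in the summed FPKM of the 8 genes, 1 stacked bar per library. Mcpt4 is the largest share in every library, Tpsb2 takes 33.1% in OAD and 29.4% in YAD against 20.8% in OTD and 22.6% in YTD, and Cpa3 has its smallest share, 3.56%, in OAD.

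Other proteases of the chymase and tryptase clusters were scarce. Of 10 listed, 7 were above 0 in some library, and Mcpt1 and Mcpt2, which mark mucosal mast cells, and Mcpt8, which marks basophils, were listed at 0 throughout. Tpsg1, the membrane-anchored tryptase, was at 0.844 FPKM in OTD and 2.18 in YTD, against 0.281 in OAD and 0.400 in YAD. It was thus lower in OTD than in YTD, unlike Tpsb2. Of the 7 genes above 0 it was the 1 that fell in YAD against YTD, beside 16.2% of all genes. The 4 basophil markers summed to 0.680 FPKM in OTD and 0.214 in YTD, against 0.081 in OAD and 0.154 in YAD. The part of basophils in the values of the 8 genes was not tested.

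Of 15 receptors and transcription factors of mast cells, 6 fell and 2 rose in YAD against YTD, beside 16.2% and 15.6% of all genes, and 6 fell and 2 rose in OAD against OTD, beside 15.2% and 15.7%. The share of risers, 13.3% in each, was thus no higher than over all genes. The risers were Kit, the receptor for Kit ligand, at 1.06 FPKM in OTD and 1.02 in YTD, against 9.74 in OAD and 11.6 in YAD, and Mitf, at 3.75, 4.48, 10.5 and 10.5 in the same order. Kit and Mitf are also genes of melanocytes, whose 7 markers summed to 12.3 FPKM in OTD and 14.6 in YTD, against 451 in OAD and 743 in YAD. The part of melanocytes in these values was not tested. Gata2 followed the order of the proteases in telogen, at 8.53 FPKM in OTD and 4.90 in YTD, and was at 1.54 in OAD and 1.65 in YAD. Surface receptors that are more particular to mast cells were low everywhere and lowest in anagen. Mrgprb2, the mast cell receptor for basic peptides, was at 0.307 in OTD, 0.252 in YTD and 0.144 in YAD and was listed at 0 in OAD. Il1rl1, the receptor for interleukin-33, was at 0.886 in OTD and 0.643 in YTD, against 0.122 in OAD and 0.131 in YAD. Between ages the list barely moved, with medians of 0.03 in telogen and -0.01 in anagen and no gene past 1. Over all genes, 1.58% rose and 1.83% fell in telogen, and 0.705% rose and 0.441% fell in anagen.

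Signalling genes downstream of the IgE receptor were mostly higher in OTD, 15 of 16 beside 43.5% of all genes, with a median of 0.41, though none rose by 1, beside 1.58%. Fcgr3, a receptor for IgG that uses the same gamma chain, was at 29.4 FPKM in OTD and 15.5 in YTD, and Lat2, an adaptor, at 5.41 and 2.92. In anagen the median between ages was -0.04. From telogen to anagen 7 fell and 2 rose in young mice, beside 16.2% and 15.6% of all genes, and 9 fell and 1 rose in old mice, beside 15.2% and 15.7%. Lyn, the kinase that starts the signal, was at 10.8 FPKM in OTD and 6.51 in YTD, against 1.74 in OAD and 1.55 in YAD, whereas Syk, the kinase that passes it on, was at 3.62, 3.34, 8.28 and 8.14. Many of these genes are shared with macrophages and other leukocytes.

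Among 12 genes of granule content and mediator synthesis, the median between ages was 0.17 in telogen and 0.08 in anagen. Srgn, the proteoglycan core that holds proteases in the granule, was the 1 of the 12 that rose in telogen, beside 1.58% of all genes. Its level was 77.6 FPKM in OTD and 33.7 in YTD, and 18.7 in OAD and 18.1 in YAD. Hpgds, which makes prostaglandin D2 in mast cells, was at 1.79 in OTD and 0.803 in YTD, against 0.326 in OAD and 0.511 in YAD, the order of Hdc. Alox5, which starts leukotriene synthesis, was lower in OTD than in YTD, at 0.961 and 1.76 FPKM. From telogen to anagen 3 of the 12 fell at each age, beside 16.2% of all genes in young and 15.2% in old mice. Of 6 genes for histamine receptors and breakdown, 5 were above 0 in some library. Hrh1, a histamine receptor, was the 1 of these 5 that rose in telogen, beside 1.58% of all genes. Its level was 2.99 FPKM in OTD and 0.701 in YTD, and 1.42 in OAD and 1.12 in YAD. Hnmt, which inactivates histamine, was at 6.28 in OTD and 6.18 in YTD, against 1.20 in OAD and 0.993 in YAD. At each age it was the 1 of the 5 that fell from telogen to anagen. That count is near the share over all genes, 16.2% in young and 15.2% in old mice.

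Ligands that maintain, attract or alert mast cells had a median difference of 0.47 between ages in telogen and 0.14 in anagen over the 8 of 10 listed that were above 0 in some library. Il33, the alarm cytokine, was the 1 of these 8 that rose in telogen, beside 1.58% of all genes. It was at 9.37 FPKM in OTD and 3.01 in YTD, and at 0.739 in OAD and 0.488 in YAD. Kitl, the Kit ligand, was at 22.4 in OTD and 15.4 in YTD, against 15.7 in OAD and 19.7 in YAD. Kitl thus had the age order of the proteases in each phase, and from telogen to anagen its log2 difference was -0.49 in old and 0.34 in young mice. Cxcl12, a chemokine of stromal cells, was at 145 FPKM in OTD and 84.3 in YTD, against 45.6 in OAD and 32.0 in YAD, higher with age in both phases. Il3 and Il9 were listed at 0.

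Markers of other cell types moved with these genes. The 4 pan-leukocyte markers summed to 165 FPKM in OTD and 93.9 in YTD, against 12.3 in OAD and 19.5 in YAD, the same order as the mast cell genes with wider gaps. The 8 genes stood at 0.618 times this sum in OTD and 0.728 in YTD, against 1.19 in OAD and 1.05 in YAD. Tyrobp, a myeloid signalling adaptor, made up 73.4% of the sum in OTD and 49.8% in OAD. Without it, a choice made after the values were seen, the ratio was 2.33 in OTD and 1.97 in YTD, against 2.36 in OAD and 2.66 in YAD, so the age order turned back in both phases, YAD stayed above YTD, and OTD and OAD were level.

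The 10 macrophage markers summed to 822 FPKM in OTD and 503 in YTD, against 106 in OAD and 136 in YAD. From telogen to anagen 8 fell at each age, beside 16.2% of all genes in young and 15.2% in old mice. Set against them, the mast cell genes stood at 12.4% in OTD and 13.6% in YTD, against 13.7% in OAD and 15.1% in YAD. Lyz2, the lysozyme of myeloid cells, made up 57.4% of that sum in OTD and 35.1% in YAD. Without it, again a choice made after the values were seen, the share was 29.2% in OTD and 25.7% in YTD, against 21.9% in OAD and 23.3% in YAD, so OTD went from the lowest to the highest of the 4. Adipocyte markers summed to 12929 FPKM in OTD and 11921 in YTD, against 3543 in OAD and 2556 in YAD, and the 8 fibroblast markers to 1564, 1123, 205 and 417. Marker RNA of fat and stroma was thus lower in FPKM in both anagen libraries, with adipocyte markers higher and fibroblast markers lower in OAD than in YAD. The amount of either tissue cannot be read from these relative values. Epidermis and hair follicle markers ran the other way, from 263 FPKM in OTD and 430 in YTD to 16174 in OAD and 10937 in YAD. Skeletal muscle markers summed to 61291 FPKM in OTD and 97295 in YTD, against 14406 in OAD and 10866 in YAD. RNA of muscle, a tissue the dissection was meant to remove, was thus measured in every library and was highest in telogen. The mitochondrially encoded genes took 52.7% of all FPKM in OTD and 44.7% in YTD, against 18.3% in OAD and 14.4% in YAD. The part of tissue composition in the differences of the mast cell genes was not tested.

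**Figure D4:**
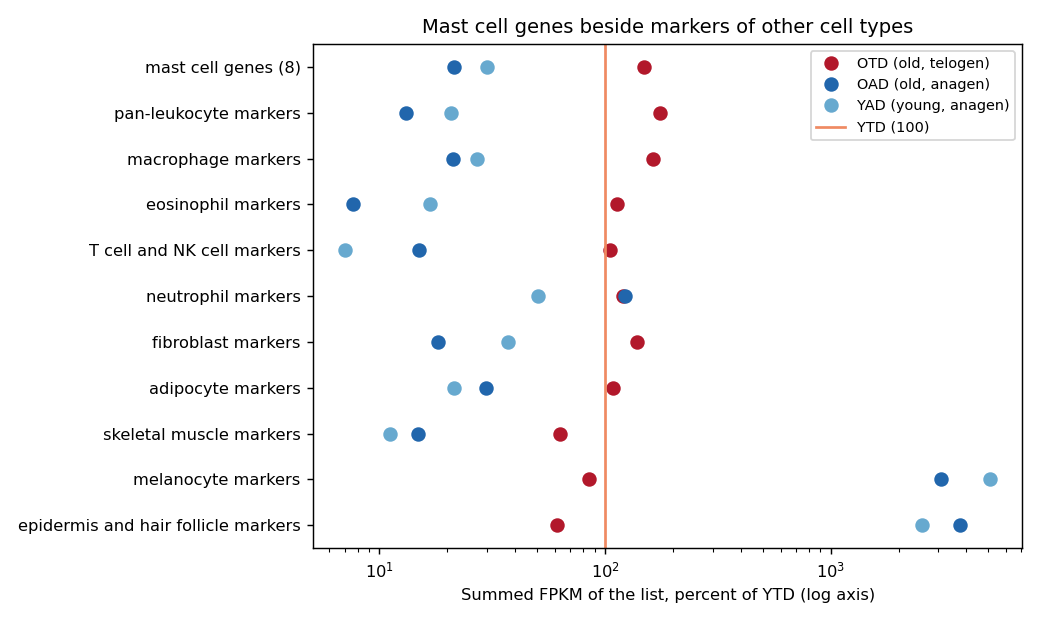
Summed FPKM of each marker list as a percent of its sum in YTD, on a log axis, for OTD, OAD and YAD. Mast cell genes, pan-leukocyte, macrophage and fibroblast markers all lie above YTD in OTD and below it in anagen with OAD lowest, and melanocyte and hair follicle markers lie far above YTD in anagen; relative to the pan-leukocyte markers the mast cell genes were higher in anagen than in telogen, but without Tyrobp they were level in old mice, at 2.33 times the markers in OTD and 2.36 in OAD.

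The eosinophil list rested on Ear2, a ribonuclease also found in macrophages, at 15.6 FPKM in OTD and 14.2 in YTD, against 0.997 in OAD and 2.52 in YAD, while Epx, Ear1 and Ear6 were listed at 0. T cell and NK cell markers summed to at most 2.76 FPKM, in OTD. Neutrophil markers summed to 140 FPKM in OTD and 117 in YTD, against 142 in OAD and 58.7 in YAD. This order of the sums was unlike that of the mast cell genes, and it rested on S100a8, at 123, 114, 129 and 56.7. The list itself was mixed, with 4 of its 8 genes higher and 4 lower in OAD than in OTD. Csf3r ran in the order of the mast cell genes, at 1.22, 0.49, 0.251 and 0.254. S100a9 did not, at 11.7, 0.656, 11.2 and 1.26.

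Genes outside the list were ranked by the distance of their log2(FPKM + 1), centred over the 4 libraries, from the median centred profile of the 8 genes, which was 1.07 in OTD and 0.39 in YTD, against -0.91 in OAD and -0.56 in YAD. Among 14197 genes with at least 1 FPKM in some library, the 10 nearest were Olfml2b, Tfpi, Ifi44, ENSMUSG00000095742, Gal, C2, Omd, Cldn11, Cd180 and Bgn, at distances of 0.0237 to 0.171. Olfml2b, an extracellular matrix protein, was at 14.5 FPKM in OTD and 8.85 in YTD, against 2.92 in OAD and 4.04 in YAD. Tfpi, an inhibitor of the coagulation pathway, was at 11.1, 6.93, 2.06 and 3.12 in the same order. Bgn, a matrix proteoglycan, was at 201, 116, 54.9 and 64.2. Of the 8 genes themselves, Tpsb2 and Hdc lay nearest to the shared profile, at 0.217 and 0.229, and Tpsab1 farthest, at 1.33. With 4 libraries many genes share such an order, and the ranking is a description only.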

How the data were processed

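RNA of dWAT was sequenced in 4 libraries, 1 each for OTD, YTD, OAD and YAD, grouped by their titles. The authors deposited FPKM per gene with gene positions and lengths, of which 97.0% are multiples of 3, so coding lengths. The submitters' processing notes name bcl2fastq, TopHat2 and GRCm38; the counting tool, annotation, strandedness and versions are not given in the sources used here. Of 22913 identifiers, 22166 are Ensembl genes, and 21750 matched a symbol. FPKM were used as deposited, with a pseudocount of 1, which understates changes of low genes, and no test was possible. Fragments were estimated from features of 2000 to 4000 bases, whose lowest values gather at 1 fragment, so depths and intervals (Clopper-Pearson, 95%) are rough and cover counting error only. The FPKM are relative to all genes, so the large mitochondrial and muscle shares bear on every value. The depth estimate and the calls were tried on simulated libraries in which only well covered genes were changed. That trial does not cover changes of genes near the floor, the intervals, the divisions or the ranking.

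The members and lists were chosen with earlier results of these data known. Genes named are the 8 members, genes of the lists, and the 10 genes nearest in profile. Alternatives were pseudocounts of 0.1 and 0.01, a minimum of 1 FPKM, median of ratios, TPM, TPM without mitochondrial and muscle genes, division by pan-leukocyte markers (without Tyrobp, added after the values were seen) and a threshold of 1.5. Trac was not analysed here. Python 3.11.15, numpy 2.4.6, pandas 2.3.3, scipy 1.17.1, Biopython 1.88 and matplotlib 3.10.9 were used.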

Additional observations from a re-analysis of the deposited data

Results flagged for a closer look

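For 5 genes above the floor in all 4 libraries, old minus young was positive in telogen and negative in anagen. The telogen less the anagen difference was 1.39 on the log2 scale for Hdc, 1.09 for Mcpt4, 1.05 for Cpa3, 0.70 for Tpsb2 and 0.51 for Cma1. With 1 library per group the difference between phases was not tested, and the counting intervals of Cma1 and Tpsb2 in anagen and of Cpa3 in telogen include no age difference. Division by the pan-leukocyte markers turned the direction in telogen for Cpa3, Cma1, Mcpt4 and Tpsb2, and in anagen for Cma1, Mcpt4 and Tpsb2. Without Tyrobp it did so in telogen for Cpa3 and Cma1 and in anagen for Cma1.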

How the results depend on the processing

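No paired analysis was possible because each group has 1 library, and for the same reason no replicate could be left out. Of 280 values of single genes under the alternatives, 33 turned direction, 30 of them in the divisions by pan-leukocyte markers and 13 of them of genes past the limit of 1. The other pseudocounts, the minimum of 1 FPKM and the threshold of 1.5 cannot turn a direction. Many of the 280 values were thus fixed in advance, and only the rescalings and divisions could turn any. With a pseudocount of 0.1 or 0.01, 4 genes rose in OTD against YTD (medians 0.95 and 0.97), 1 fell in OAD against YAD (median -0.63 at 0.01), the median of OAD against OTD was -2.86 and -2.91, and at 0.01 1 gene rose in YAD against YTD. The minimum of 1 FPKM left 6 genes and gave a median of -1.38 in YAD against YTD. Median of ratios gave 2 risers in OTD against YTD, and a threshold of 1.5 gave 0. TPM gave 1 fall in OAD against YAD, medians of -0.33 (1 fall) in YAD against YTD and -1.54 in OAD against OTD, and summed levels of 32.7% (OAD) and 53.9% (YAD) of YTD. TPM without mitochondrial and muscle genes gave a median of 0.78 with 2 risers in OTD against YTD, 1 fall in OAD against YAD, -2.46 in OAD against OTD and an OTD level of 167% of YTD. Division by the pan-leukocyte markers gave 0 risers in OTD against YTD, a median of 0.0609 in OAD against YAD, 0.44 with 0 falls in YAD against YTD (Cpa3 0.23, Cma1 0.0607, Mcpt4 0.43, Tpsb2 0.85) and 0.32 with 1 riser and 0 falls in OAD against OTD (Cma1 0.87, Mcpt4 0.72, Hdc 0.42, Tpsb2 1.52), with summed levels of 84.9% (OTD), 163% (OAD) and 144% (YAD) of YTD. Without Tyrobp this division gave 0 risers in OTD against YTD, 1 fall in OAD against YAD, 0.36 with 0 falls in YAD against YTD (Cpa3 0.15, Mcpt4 0.34, Tpsb2 0.76), -0.10 with 0 falls in OAD against OTD (Cma1 0.0286, Tpsb2 0.65), and 118%, 120% and 135% of YTD for OTD, OAD and YAD. These divisions moved the median of all genes by -0.46, 0.58, 1.57 and 2.84 (with Tyrobp, for OTD against YTD, OAD against YAD, YAD against YTD and OAD against OTD), and the members' median less that of all genes was then 0.49, -0.52, -1.13 and -2.52. Each division scales every gene of a library alike, so these distances restate the undivided ones, apart from the pseudocount. TPM moved the median of all genes by -0.15 in OAD against YAD, 0.40 in YAD against YTD and 0.28 in OAD against OTD. Over all genes, 287 rose and 333 fell in OTD against YTD as deposited, 1081 and 1063 at a pseudocount of 0.1, 1800 and 1645 at 0.01, 70 and 71 at a threshold of 1.5, and 621 and 343 by TPM without mitochondrial and muscle genes. In YAD against YTD, TPM gave 5891 rises and 1274 falls in place of 2829 and 2938. Division by the pan-leukocyte markers gave 38 rises and 3270 falls over all genes in OTD against YTD, and 1924 and 146 in OAD against YAD. It gave 11246 rises and 235 falls in YAD against YTD, and 14245 and 34 in OAD against OTD. Without Tyrobp these were 99 and 780, 594 and 154, 10820 and 262, and 12496 and 78, in the same order. The causes of these moves were not tested.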
